A study of Mus musculus with 12 samples.

Results

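The proteasome genes described here are the rows of the deposited count table whose symbols begin with Psma, Psmb, Psmc, Psmd, Psme, Psmf or Psmg followed by a digit, without the immunoproteasome genes Psmb8, Psmb9 and Psmb10. The rule gave 46 of the 23420 genes in the table. They are 16 core genes (Psma, Psmb), 7 genes of the ATPase series (Psmc), 14 lid and base genes (Psmd), 5 activator and inhibitor genes (Psme, Psmf) and 4 assembly factors (Psmg). Of these 46 genes, 45 passed the filter on low counts and were tested. Psmb11, the core subunit of thymic cortical epithelium, was not, with no count in 10 libraries and 2 and 4 counts in tibia libraries 2 and 3 of mouse 7.

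Macrophages had been sorted from marrow nucleated cells of 2 C57BL/6 mice, numbered 7 and 19, and profiled by bulk RNA-seq. In each mouse the tibia was treated with mesenchymal stromal cells (MSCs), the fibroblast-like supporting cells of marrow, and the femur was untreated; the labels call the tibia cells MSC-educated macrophages. Each bone of each mouse gave 3 libraries, so there were 6 libraries per bone. The study's title concerns leukaemic marrow, but the sources used here do not give whether these animals carried leukaemia, their age, or the route and time of treatment. Since only tibias were treated, MSC treatment and bone cannot be told apart. The labels do not say whether the 3 libraries of a bone were separate sorts, so the p-values measure the spread between libraries, which may be technical.

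The proteasome is the protease complex that degrades proteins tagged with ubiquitin. Its barrel-shaped core has outer rings of alpha subunits (Psma), which gate the entry channel, and inner rings of beta subunits (Psmb), of which Psmb5, Psmb6 and Psmb7 carry the protease sites. A regulatory particle caps the barrel: a ring of ATPases (Psmc) unfolds substrates, while non-ATPase subunits of the base and lid (Psmd) bind ubiquitin chains and remove them. Other caps (Psme) open the core without ATP, and the Psmg chaperones build the alpha ring. In macrophages the complex also supplies peptides for antigen presentation and degrades the inhibitor of NF-kappaB. Subunit genes are known to be transcribed together, with NFE2L1 binding antioxidant response elements and NF-Y binding CCAAT boxes in their promoters.

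The promoters of the members were searched for these 2 motifs in the RefSeq promoter table (assembly GRCm38.p6), which had 41 promoters for 38 of the 46 genes. Psma8, Psmb1, Psmb2, the protease-site gene Psmb7, Psmc3, Psmd3, Psmd7 and Psmg2 had no promoter there and were not searched. Each promoter spans 250 bases before to 50 after the start, and both strands were searched. The antioxidant response element core TGACNNNGC was found in 6 of the 41 promoters (14.6%), against 12.4% of all 32851 promoters of the table. The genes were Psmb5, Psmb6, Psmc6, Psmd9, Psmd12 and Psme4. CCAAT was found in 14 of the 41 promoters (34.1%), against 37.4% of all promoters. Of these 14 genes, 5 passed the test below (Psma1, Psma2, Psma3, Psma6 and Psmc1) and 9 did not or were not tested (Psma7, Psmb3, Psmb11, Psmc2, Psmc3ip, Psmd4, Psmd10, Psmd14 and Psme3). Neither sequence was found in the promoters of the called genes Psma5, Psmb4 and Psmd13. The shares among the members were close to those among all promoters, and a match of letters is not a measured binding site.

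The 120 bases before the start are shown for the 2 members with protease sites whose promoters hold TGACNNNGC, for 2 called alpha-ring genes with CCAAT, and for the called alpha-ring gene with neither. Each runs 5′ to 3′ on the gene's strand, with the matched motif in capitals.
Psmb5, chr14:54617996-54618115, minus strand: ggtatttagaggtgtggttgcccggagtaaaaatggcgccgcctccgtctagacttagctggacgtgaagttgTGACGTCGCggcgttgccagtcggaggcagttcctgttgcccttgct
Psmb6, chr11:70525237-70525356, plus strand: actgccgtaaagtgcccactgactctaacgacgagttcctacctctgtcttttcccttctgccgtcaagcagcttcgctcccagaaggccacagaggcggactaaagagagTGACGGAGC
Psma1, chr7:114276117-114276236, minus strand: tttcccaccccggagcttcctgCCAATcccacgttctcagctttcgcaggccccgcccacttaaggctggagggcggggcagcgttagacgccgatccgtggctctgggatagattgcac
Psma2, chr13:14613122-14613241, plus strand: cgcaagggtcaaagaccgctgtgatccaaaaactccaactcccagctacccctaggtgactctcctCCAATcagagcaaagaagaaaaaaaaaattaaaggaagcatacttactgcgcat
Psma5, chr3:108256806-108256925, plus strand: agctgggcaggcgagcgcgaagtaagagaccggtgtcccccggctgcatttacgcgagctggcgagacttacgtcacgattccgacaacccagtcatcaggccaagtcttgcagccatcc
The matches shown begin 47 bases before the start in Psmb5, 9 in Psmb6, 98 in Psma1 and 54 in Psma2. Psma1 has a further match on the other strand (ATTGG) that begins 126 bases before the start, outside the bases shown. Psmb5 and Psmb6 did not pass the test over both mice, and Psma1, Psma2 and Psma5 did. Within mouse 7 Psmb6 passed (adjusted p = 0.0311, edgeR). The genes shown were picked partly by these calls, and a link between motif and change was not tested. The values follow.

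Total counts ran from 9773455 to 14869150 per library, and 13524 to 13902 genes had a count. Levels are CPM, the counts scaled by TMM-adjusted library size. The members held 0.368 to 0.434% of the counts. Macrophage genes were abundant (Lyz2, lysozyme, 14501 ± 1085 CPM and Csf1r, the macrophage growth factor receptor, 946 ± 177 CPM in femur; SD, n = 6), although 7 of 10 granulocyte precursor genes were higher in tibia. The globin rows Hbb-b1 and Hba-a1 were at 0 in all 12 libraries. Counting error allows 6 counts per library, since most fragments appear as 2 counts. That limit covers counting error only, as the labels name no molecular identifiers. It does not cover reads that could not be assigned to these rows, so the zeros do not show that globin RNA was absent. Other erythroid genes had counts, such as Alas2 (4.02 ± 1.27 CPM) and Car1 (6.69 ± 5.02 CPM) in femur. Erythroid, lymphoid and stromal lists summed to 5.76 to 26.3, 31.7 to 44.7 and 14.1 to 22.5 CPM, with 0 genes called between the bones over both mice by edgeR (1 at an unadjusted p under 0.05 in each list; DESeq2 called 1, Eng); within mouse 7 edgeR called the stromal gene Cxcl12 lower in tibia (-0.98 ± 0.30 on the log2 scale, adjusted p = 0.0347).

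Scaled to exon length, the members covered a wide range. Among the standard core genes the femur level ran from 29.8 CPM per kb for Psma3 to 221 CPM per kb for Psma7, the alpha subunit whose testis counterpart is Psma8. Psma8 itself stood at 1.38 CPM per kb. The next highest core levels were those of Psma1 (139 ± 8.45 CPM per kb; SD, n = 6) and Psmb4 (119 ± 8.73), with Psmb2, Psma4 and Psmb3 between 99.6 and 104 CPM per kb, closer together than their SDs. Of the protease subunits, Psmb6 (93.4 CPM per kb) and Psmb7 (76.4) were above Psmb5 (46.3). The low place of Psma3 depends on the length used: on the shorter of its transcripts it was 98.8 CPM per kb, and Psma6 was 136 in place of 93.1. The 6 ATPases stood between 43.7 (Psmc6) and 82.8 CPM per kb (Psmc3) in femur, a narrower range than that of the core. The lid and base group ran from 115 CPM per kb for the lid subunit Psmd8 down to 9.36 for Psmd5 and 6.29 for Psmd9, which are chaperones of base assembly rather than parts of the finished particle. Psmd10, the third such chaperone, had 17.0 CPM per kb. The interferon-inducible activator pair Psme1 and Psme2 had 126 and 88.2 CPM per kb, the nuclear activators Psme3 and Psme4 had 47.6 and 21.8, and the inhibitor gene Psmf1 had 7.56. The core chaperones Psmg1 to Psmg4 lay between 9.30 and 25.5 CPM per kb. Psmc3ip, which has a Psmc symbol but encodes a meiotic recombination protein and no ATPase, had 4.27.

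**Figure D1:**
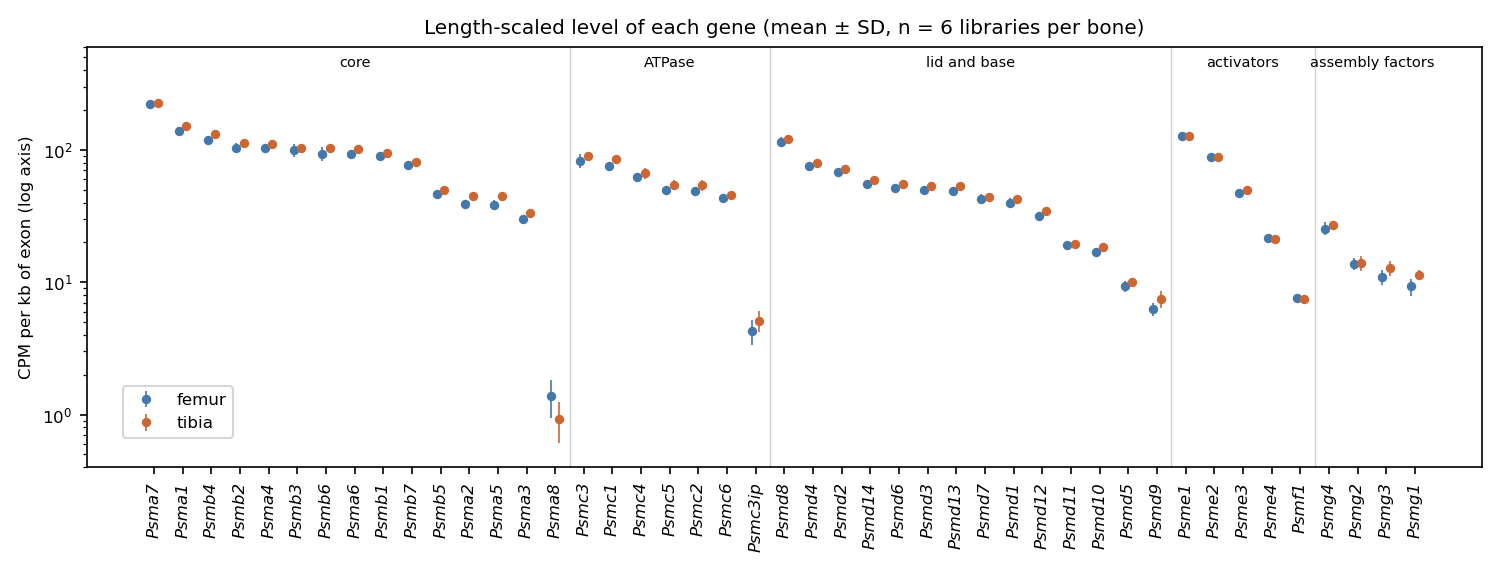
Mean level of each detected member per kb of exon (log axis) in 6 femur and 6 tibia libraries, with the SD, ordered within each group by femur level. Psma7 was highest at 221 CPM per kb in femur, and Psma8 lowest at 1.38.

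The comparison of tibia with femur asks how the transcripts of the complex differ between macrophages of MSC-treated and untreated bones. With the library as the unit, 8 of the 45 tested members passed edgeR's quasi-likelihood test with the mouse as a term, all upward (17.8%, against 3.51% of all 11806 tested genes), and 37 did not; with the animal as the unit none of the 45 passed. They were the alpha-ring genes Psma1, Psma2, Psma3, Psma5 and Psma6, the beta-ring gene Psmb4, the ATPase Psmc1 and the lid gene Psmd13, with changes of 9.17 to 15.9%. None was lower (0 of 45, against 3.69% of all genes), also by DESeq2, and 1 of the 26 members with an unadjusted p under 0.05 was lower (Psma8). The log2 change was positive in 42 of 45 members with a median of 0.10, or 7.50%, against 49.2% positive and a median of -0.0021 over all tested genes. All 34 tested subunits and chaperones of the core, ATPase and lid and base groups apart from Psma8 and Psmc3ip had a positive change. Members share 1 complex and the same 12 libraries and are not independent of each other.

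The calls rest on small differences and on the libraries as units. Without femur library 1 of mouse 7 the count of 8 fell to 5, without its femur library 2 to 4 and without its tibia library 3 to 5; Psma2, Psma3, Psma5 and Psmc1 passed in all 12 fits that left out a library. On counts summed per mouse and bone, with the animal as the unit, 0 members passed (13 had an unadjusted p under 0.05), against 0.407% of all genes higher and 0.144% lower. In bulk RNA, fewer cells of a type and less RNA per cell cannot be told apart. Granulocyte precursor genes, which mark another marrow lineage, were higher in tibia in 7 of 10 cases (median log2 change 0.33), and their summed level ran over 9231 to 10234 CPM in the femur and 9969 to 10298 CPM in the tibia of mouse 7, and over 13566 to 15675 and 15303 to 16642 CPM in mouse 19. Of 13 cycling-cell genes, 1 was called over both mice (Rrm2); their sum ran over 3688 to 3857 CPM in femur and 4217 to 4344 CPM in tibia of mouse 7, and over 4484 to 4613 and 4067 to 4314 CPM in mouse 19. The part of these cells in the proteasome result was not tested. Over all tested genes, 3.51% were called higher in tibia over both mice.

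**Figure D2:**
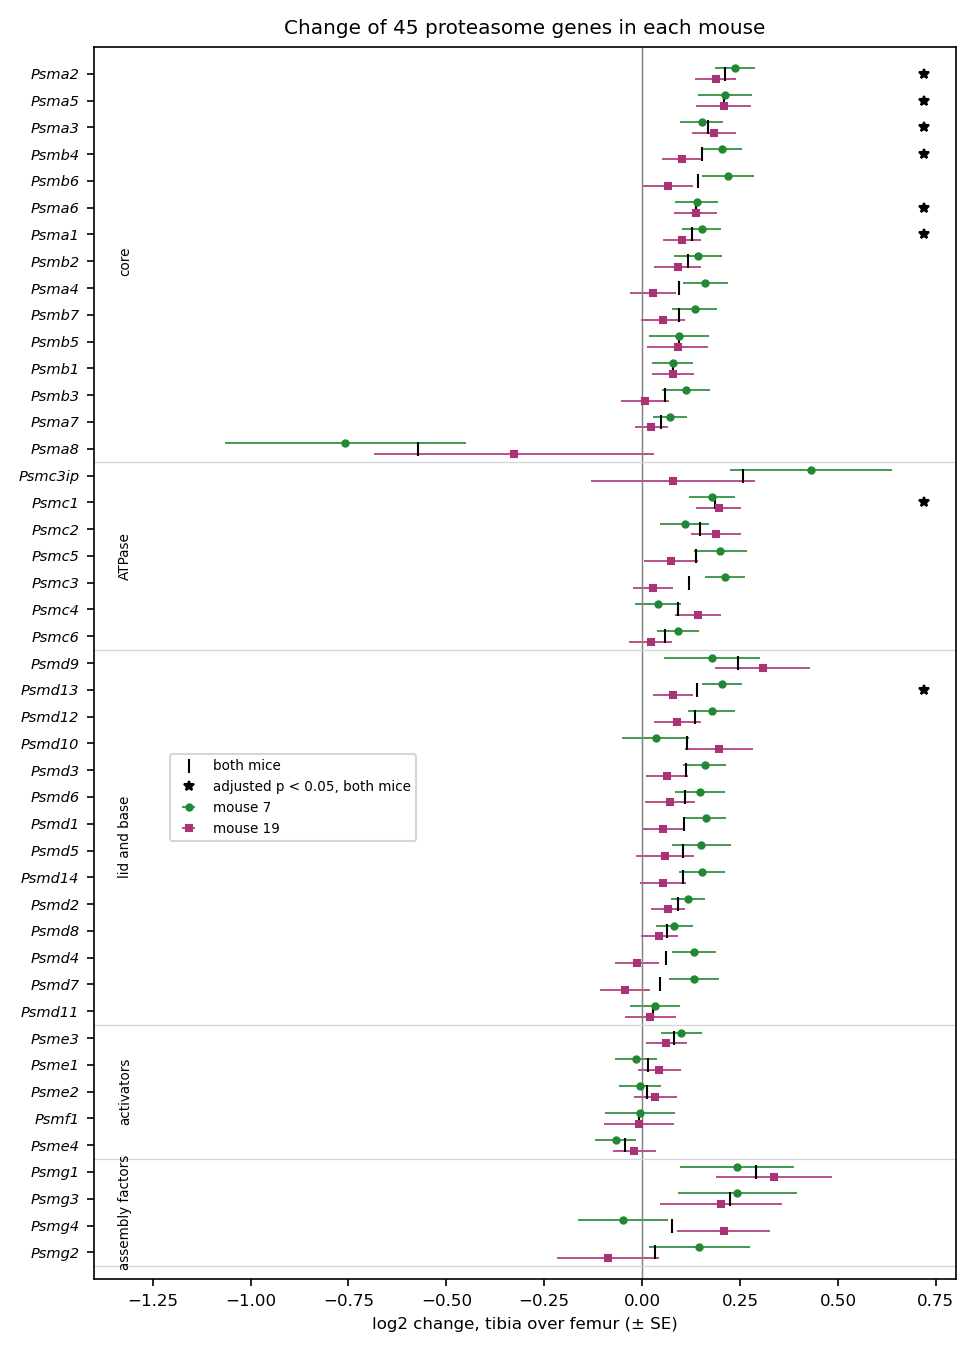
Log2 change of tibia over femur with its SE for the 45 tested members in mouse 7 (circles) and mouse 19 (squares), with the value over both mice as a bar and a star where its adjusted p was under 0.05. Most values lie to the right of 0, and those of the activators lie around 0.

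The alpha ring held most of the calls. Of its 7 standard members 5 passed (71.4%, against 3.51% of all tested genes), and the median log2 change was 0.14. The medians of the 6 ATPases (0.13) and the assembly factors (0.15) were close to this. Within mouse 7, 3 of the 7 alpha-ring and 2 of the 7 beta-ring genes passed (against 4.37% of all genes), with medians of 0.15 and 0.13. Within mouse 19 it was 1 and 0 (against 2.96%). Psma2 had the smallest adjusted p of all members. Psma2 (chr13:14613240-14674236, plus strand) stood at 103, 112 and 106 CPM in the femur of mouse 7 and 128, 123 and 128 CPM in its tibia, and at 122, 122 and 118 CPM in the femur of mouse 19 and 139, 143 and 129 CPM in its tibia. Every tibia library was above every femur library of its mouse, and the rise was 0.21 ± 0.04 on the log2 scale (SE; adjusted p = 8.8e-04, edgeR; 15.9%). Psma5 (chr3:108256926-108279974, plus strand) stood at 44.3, 44.1 and 50.9 CPM in the femur of mouse 7 and 52.7, 53.3 and 55.3 CPM in its tibia, and at 52.8, 45.5 and 49.1 CPM in the femur of mouse 19 and 57.6, 57.99 and 54.1 CPM in its tibia. Its groups did not overlap within either mouse, with a log2 change of 0.21 ± 0.05 (adjusted p = 0.0103).

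Psma3 (chr12:70974621-70996347, plus strand) stood at 81.7, 85.8 and 87.3 CPM in the femur of mouse 7 and 94.8, 93.8 and 94.5 CPM in its tibia, and at 85.3, 87.4 and 81.9 CPM in the femur of mouse 19 and 96.1, 102 and 90.7 CPM in its tibia. The tibia libraries were again above all femur libraries of their mouse (0.17 ± 0.04, adjusted p = 0.0109), and here the femurs of the mice lay together. Psma6 (chr12:55384222-55418454, plus strand) stood at 107, 100.05 and 108 CPM in the femur of mouse 7 and 119, 117 and 112 CPM in its tibia, and at 103, 109.9 and 113 CPM in the femur of mouse 19 and 123, 124 and 112 CPM in its tibia. In mouse 19 its tibia library 3 lay below femur library 3, so the groups overlapped there; the change was 0.14 ± 0.04 (adjusted p = 0.0350), and the call was lost in 8 of the 12 fits that left out a library (0.0537 to 0.0882; libraries 1 and 2 of each bone and mouse). Psma1 (chr7:114264606-114276118, minus strand) stood at 164, 155 and 159.7 CPM in the femur of mouse 7 and 175, 169 and 188 CPM in its tibia, and at 176, 183 and 166 CPM in the femur of mouse 19 and 186, 194 and 182 CPM in its tibia. Here tibia library 3 of mouse 19 fell just under femur library 2; the change was 0.13 ± 0.04 (adjusted p = 0.0364), and 7 of the 12 fits lost the call (0.0534 to 0.118; without any library of mouse 7 but its tibia library 2, or, in mouse 19, without its femur library 3 or its tibia library 2).

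The other alpha-ring genes had smaller values. Psma4 had a log2 change of 0.09 ± 0.04 (adjusted p = 0.226) and Psma7, the most abundant per length, 0.05 ± 0.03 (0.434). The testis subunit Psma8, a gene with low counts, stood at 3.08, 3.16 and 2.81 CPM in the femur of mouse 7 and 2.45, 1.53 and 1.39 CPM in its tibia, and at 1.65, 1.59 and 1.73 CPM in the femur of mouse 19 and 0.944, 1.20 and 1.86 CPM in its tibia. It had the lowest change of all members, -0.57 ± 0.23, which did not pass (adjusted p = 0.141).

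**Figure D3:**
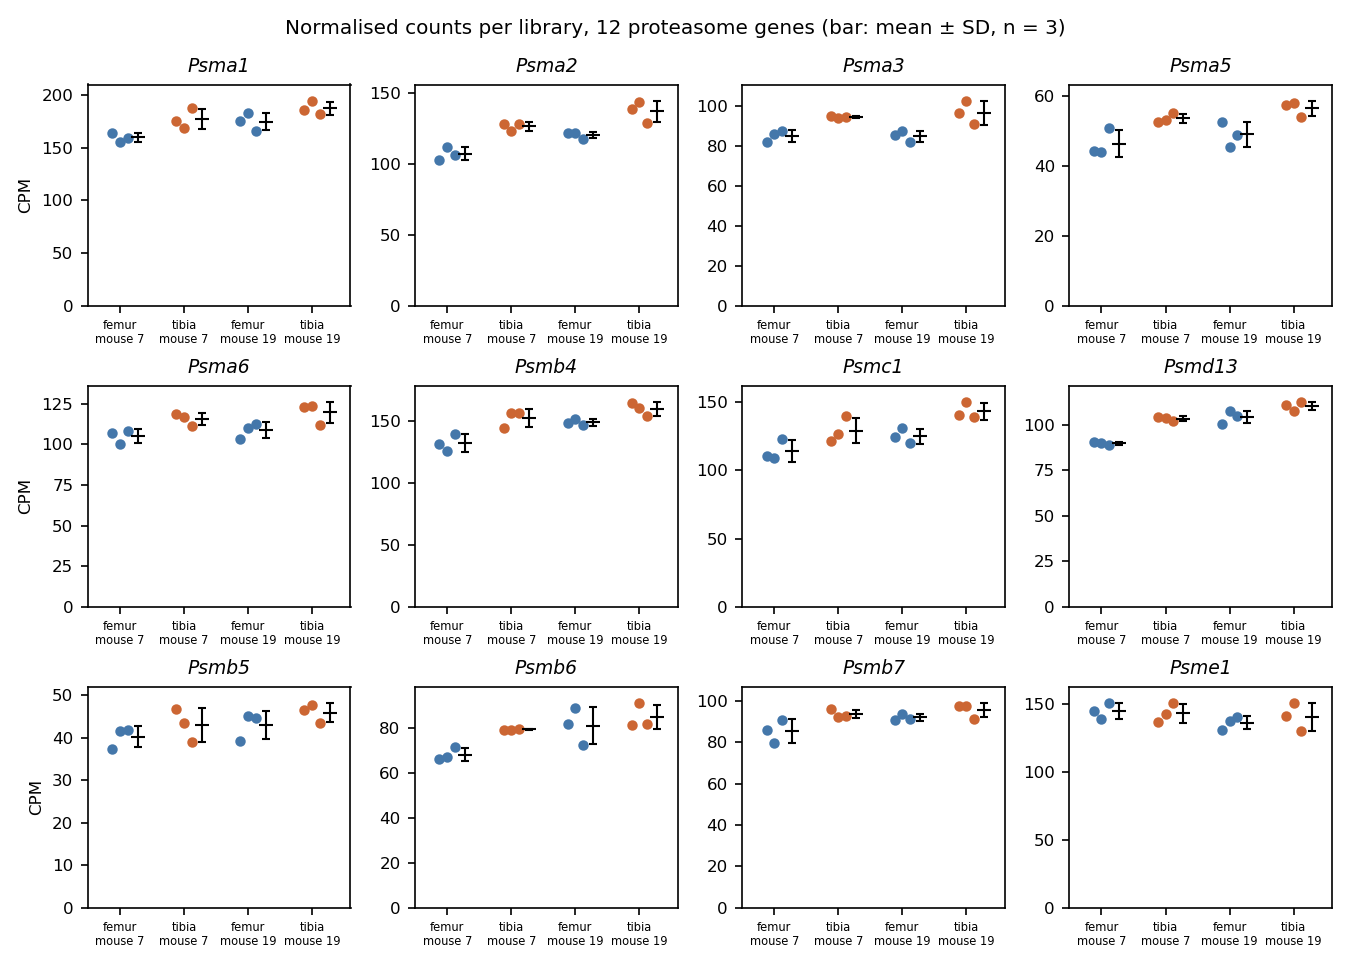
Level in CPM of the 8 called genes, the 3 protease-site genes and Psme1 in each library (points, 3 per bone and mouse), with mean and SD. Tibia points lie above femur points in both mice for Psma2, Psma3, Psma5, Psmb4 and Psmd13, and the bones overlap for Psme1.

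In the beta ring 1 of 7 standard members passed (14.3%, against 3.51% of all tested genes), with a median of 0.094. A count of 1 among 7 genes does not set the ring apart from all tested genes. Psmb4 (chr3:94884093-94886961, minus strand), a structural subunit without a protease site, stood at 132, 126 and 139.97 CPM in the femur of mouse 7 and 144, 157 and 157 CPM in its tibia, and at 148, 152 and 147 CPM in the femur of mouse 19 and 165, 161 and 154 CPM in its tibia. Groups did not overlap in either mouse, and the change was 0.15 ± 0.04 (adjusted p = 0.0160). It lost the call without femur library 2 of mouse 7 (adjusted p = 0.0507) and without tibia library 3 of that mouse (0.0536).

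The 3 protease-site genes did not pass over both mice. Psmb6, the caspase-like subunit (chr11:70525367-70527858, plus strand), stood at 65.95, 66.9 and 71.4 CPM in the femur of mouse 7 and 79.1, 79.1 and 79.4 CPM in its tibia, and at 81.8, 88.6 and 72.4 CPM in the femur of mouse 19 and 81.4, 91.01 and 81.7 CPM in its tibia. All tibia libraries of mouse 7 exceeded its femur libraries, while in mouse 19 the bones overlapped; the change over both mice was 0.14 ± 0.05 (adjusted p = 0.0909). Psmb7, the trypsin-like subunit (chr2:38588036-38644087, minus strand), stood at 86.04, 79.4 and 90.7 CPM in the femur of mouse 7 and 95.9, 92.3 and 92.7 CPM in its tibia, and at 90.7, 93.8 and 91.2 CPM in the femur of mouse 19 and 97.6, 97.2 and 91.3 CPM in its tibia. It gave 0.09 ± 0.04 (adjusted p = 0.188), and 34.9% of its exon length overlaps Nek6 on the other strand, itself higher in tibia (4.80 to 7.53 CPM, adjusted p = 0.0030), whose reads could not be told apart without the strand setting. Psmb5, the chymotrypsin-like subunit that proteasome inhibitor drugs bind (chr14:54614119-54618022, minus strand), stood at 37.3, 41.6 and 41.8 CPM in the femur of mouse 7 and 46.7, 43.4 and 38.9 CPM in its tibia, and at 39.2, 45.1 and 44.7 CPM in the femur of mouse 19 and 46.6, 47.8 and 43.4 CPM in its tibia. The bones overlapped in both mice, with a change of 0.09 ± 0.06 (adjusted p = 0.362; approximate 95% interval -0.017 to 0.20). The structural subunits Psmb1, Psmb2 and Psmb3 had changes of 0.06 to 0.12, none called.

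Of the 6 ATPases 1 passed (16.7%, against 3.51% of all tested genes), and all had positive changes with a median of 0.13. With 6 genes, 1 call does not set the group apart from all tested genes. Psmc1 (chr12:100110154-100123405, plus strand) stood at 111, 109 and 123 CPM in the femur of mouse 7 and 121, 127 and 139.7 CPM in its tibia, and at 124, 131 and 120.1 CPM in the femur of mouse 19 and 141, 150.3 and 139 CPM in its tibia. Its tibia libraries were all above the femur libraries in mouse 19, and in mouse 7 tibia library 1 fell below femur library 3; the change was 0.19 ± 0.04 (adjusted p = 0.0083). Psmc3, the ATPase with the highest level per length, stood at 129.98, 114 and 123 CPM in the femur of mouse 7 and 136, 146 and 141 CPM in its tibia, and at 148, 147 and 152 CPM in the femur of mouse 19 and 148, 152 and 156 CPM in its tibia. The bones were apart in mouse 7 and overlapped in mouse 19 (0.12 ± 0.04 over both mice, adjusted p = 0.0897). Psmc6 had the lowest ATPase change. It stood at 95.8, 93.1 and 103 CPM in the femur of mouse 7 and 103, 107 and 101 CPM in its tibia, and at 98.3, 97.2 and 98.3 CPM in the femur of mouse 19 and 97.4, 104 and 96.7 CPM in its tibia, a difference within the spread of the libraries (0.06 ± 0.04, adjusted p = 0.437). Psmc2, Psmc4 and Psmc5 had 0.15, 0.09 and 0.14, and Psmc2 narrowly missed the threshold (adjusted p = 0.0543). Psmc3ip, the recombination factor, had the highest value of the Psmc symbols. It stood at 5.46, 5.26 and 4.66 CPM in the femur of mouse 7 and 8.39, 6.12 and 6.28 CPM in its tibia, and at 4.42, 7.81 and 5.43 CPM in the femur of mouse 19 and 6.81, 7.15 and 4.85 CPM in its tibia, and with so few counts its 0.26 ± 0.15 did not pass (adjusted p = 0.353).

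Among the 14 lid and base genes 1 passed (7.14%, against 3.51% of all tested genes), and all changes were positive (median 0.11). A count of 1 in a group of this size is near the share over all genes. The lid scaffold gene Psmd13 (chr7:140881968-140898643, plus strand) stood at 90.3, 90.2 and 88.8 CPM in the femur of mouse 7 and 104, 104 and 102 CPM in its tibia, and at 101, 107 and 105 CPM in the femur of mouse 19 and 111, 108 and 112 CPM in its tibia. Both mice had all tibia libraries above all femur libraries, by 0.14 ± 0.04 (adjusted p = 0.0249). The call was lost when any of the 6 libraries of mouse 7 was left out (0.0542 to 0.0578). On the other strand Sirt3 overlaps 17.2% of its exon length, at 8.67 CPM in femur and 8.39 CPM in tibia (adjusted p = 0.857).

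Psmd14 encodes the deubiquitinase that cuts the ubiquitin chain from the substrate. It stood at 80.8, 83.8 and 79.1 CPM in the femur of mouse 7 and 93.8, 83.2 and 94.2 CPM in its tibia, and at 94.1, 84.3 and 88.5 CPM in the femur of mouse 19 and 90.5, 93.7 and 92.3 CPM in its tibia, with overlapping bones and a change of 0.10 ± 0.04 (adjusted p = 0.167). Its partner in the lid, Psmd7, stood at 62.3, 61.9 and 64.7 CPM in the femur of mouse 7 and 70.9, 68.4 and 67.7 CPM in its tibia, and at 73.6, 71.03 and 72.5 CPM in the femur of mouse 19 and 66.5, 78.9 and 65.2 CPM in its tibia. The tibia was higher in mouse 7 and spread on both sides of the femur in mouse 19 (0.04 ± 0.05, adjusted p = 0.666). The ubiquitin receptor Psmd4 stood at 101, 96.96 and 97.7 CPM in the femur of mouse 7 and 99.8, 112 and 112 CPM in its tibia, and at 112, 104 and 102 CPM in the femur of mouse 19 and 105, 104 and 105 CPM in its tibia, and its bones overlapped in both mice (0.06 ± 0.04, adjusted p = 0.461). The base scaffolds Psmd1 and Psmd2, which hold ubiquitin receptors and shuttle proteins, had 0.11 and 0.09 (adjusted p = 0.107 and 0.094). The highest change of the group belonged to the assembly chaperone Psmd9, at 15.9, 13.5 and 17.3 CPM in the femur of mouse 7 and 19.5, 17.6 and 15.7 CPM in its tibia, and at 18.7, 17.5 and 15.2 CPM in the femur of mouse 19 and 22.3, 22.97 and 17.9 CPM in its tibia. Its libraries were scattered (0.24 ± 0.09, adjusted p = 0.0978). Psmd11, a lid subunit, had the lowest change and stood at 53.9, 53.5 and 54.4 CPM in the femur of mouse 7 and 54.4, 51.9 and 59.3 CPM in its tibia, and at 56.8, 54.8 and 52.8 CPM in the femur of mouse 19 and 59.1, 54.8 and 52.4 CPM in its tibia (0.03 ± 0.05, adjusted p = 0.807).

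The activators and the inhibitor had no call (0 of 5; 1 unadjusted p under 0.05, Psme3; also 0 by DESeq2) and a median log2 change of 0.013. Psme1 stood at 145, 139 and 151 CPM in the femur of mouse 7 and 137, 142 and 151 CPM in its tibia, and at 131, 138 and 140.3 CPM in the femur of mouse 19 and 141, 151 and 129.9 CPM in its tibia. Its partner Psme2 stood at 83.9, 91.1 and 89.8 CPM in the femur of mouse 7 and 85.7, 87.1 and 90.96 CPM in its tibia, and at 84.7, 83.9 and 83.04 CPM in the femur of mouse 19 and 83.7, 88.8 and 85.01 CPM in its tibia. Both genes had overlapping bones in each mouse, and their changes of 0.01 ± 0.04 had approximate 95% intervals of -0.066 to 0.094 and -0.063 to 0.090. Psme3, the nuclear activator, stood at 120.3, 117 and 134 CPM in the femur of mouse 7 and 134, 132 and 132 CPM in its tibia, and at 133, 129.7 and 126 CPM in the femur of mouse 19 and 139.7, 135 and 131 CPM in its tibia, the highest change of the group at 0.08 ± 0.04 (adjusted p = 0.230). Psme4, whose product caps the core in nuclei and testis, stood at 147, 149.6 and 136 CPM in the femur of mouse 7 and 143, 138 and 132 CPM in its tibia, and at 133, 139 and 143 CPM in the femur of mouse 19 and 136, 128 and 145 CPM in its tibia. Its change was the lowest, -0.04 ± 0.04 (adjusted p = 0.575), and Psmf1, encoding a core inhibitor, had -0.0075 ± 0.064 (0.966).

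The 4 assembly chaperones had low counts and no call (0 of 4 by edgeR and DESeq2; 1 unadjusted p under 0.05, Psmg1). Psmg1 stood at 9.004, 10.7 and 9.54 CPM in the femur of mouse 7 and 11.6, 12.2 and 10.8 CPM in its tibia, and at 7.92, 9.17 and 11.95 CPM in the femur of mouse 19 and 10.99, 12.5 and 13.6 CPM in its tibia. Its change of 0.29 ± 0.10 was the highest of all members but did not pass (adjusted p = 0.0949), and in mouse 19 femur library 3 lay above tibia library 1. Psmg2, its partner in the chaperone pair, stood at 12.8, 15.01 and 14.4 CPM in the femur of mouse 7 and 14.2, 18.5 and 13.9 CPM in its tibia, and at 12.96, 16.7 and 15.6 CPM in the femur of mouse 19 and 13.3, 15.6 and 13.9 CPM in its tibia (0.03 ± 0.09, adjusted p = 0.894). Psmg3 and Psmg4, the other pair, had 0.22 ± 0.11 and 0.08 ± 0.08; 26.8% of the exon length of Psmg3 overlaps Gm26938 on the same strand.

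Sums of CPM within each group showed how far the differences added up over the complex. The core sum was 1453 ± 46.1 CPM in the femur of mouse 7 and 1605 ± 9.50 CPM in its tibia (SD, n = 3; 10.5% higher), and 1578 ± 29.3 and 1679 ± 71.1 CPM in mouse 19 (6.43% higher). The sum of the 6 ATPases was 10.3% higher in the tibia of mouse 7 and 7.77% higher in that of mouse 19, and the lid and base sum 9.68% and 3.78%. The activator sum was 529 ± 10.6 and 530 ± 3.93 CPM in mouse 7 and 518 ± 5.498 and 528 ± 7.37 CPM in mouse 19, with overlapping libraries in both. In mouse 7 the core, ATPase, and lid and base sums of every tibia library exceeded those of every femur library. In mouse 19 this held for the ATPase sum and the lid and base sum but not for the core, where tibia library 3 (1601 CPM) lay below femur library 2 (1610 CPM). The assembly factor sum was 9.37% higher in the tibia of mouse 7 and 11.6% higher in that of mouse 19, where the libraries overlapped. No test was run on these sums.

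**Figure D4:**
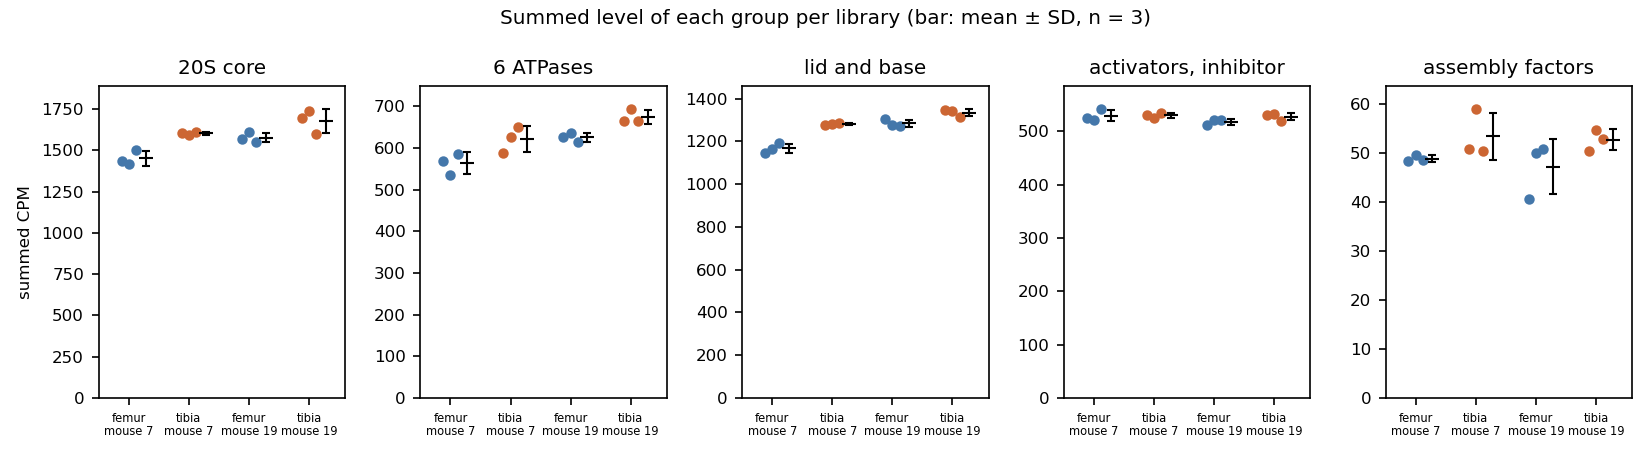
Summed CPM of each group of members in each library (points, 3 per bone and mouse), with mean and SD. The mean core, ATPase, and lid and base sums are higher in tibia in both mice, with core libraries that overlap in mouse 19. The activator sum lies between 511 and 541 CPM in every library.

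Separation of libraries gave a similar picture gene by gene. In 5 of the 45 tested members every tibia library was above every femur library of its mouse in both mice (Psma2, Psma3, Psma5, Psmb4 and Psmd13), against 2.44% of all tested genes.

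**Figure D5:**
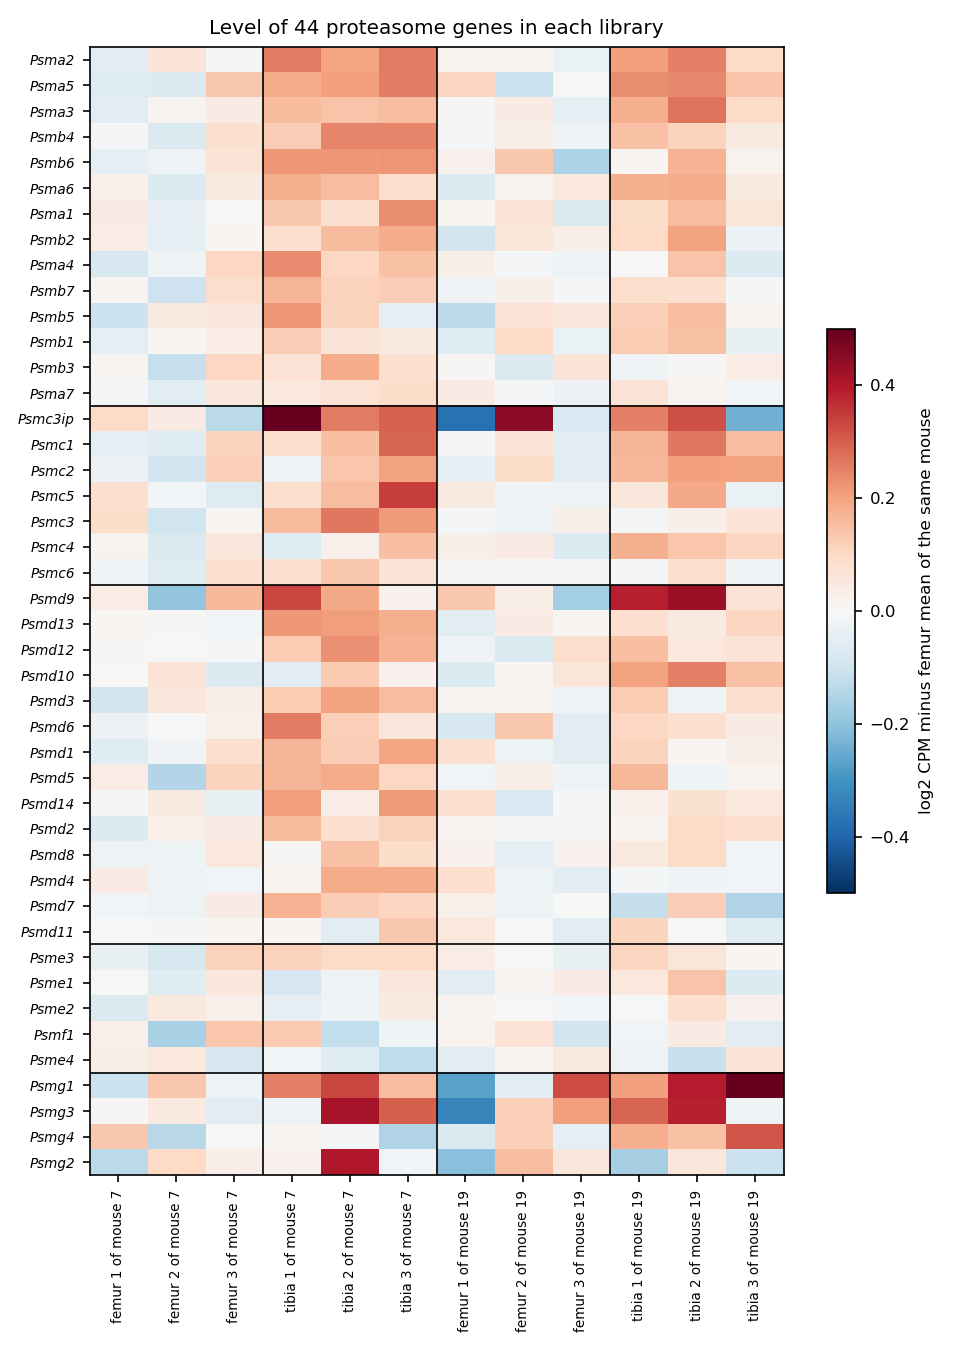
Log2 CPM of 44 members in each of the 12 libraries, minus the mean log2 CPM of the 3 femur libraries of the same mouse (red higher, blue lower); Psma8 is left out for its low counts. Core, ATPase, and lid and base rows are red across most tibia libraries, and tibia library 3 of mouse 19 is paler than the other 2 tibia libraries of that mouse (all members summed to 4158 CPM there).

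Within mouse 7, 9 of 45 members were higher (against 4.37% of all genes) and none lower (against 5.36%; DESeq2 also called none lower, and 24 members had an unadjusted p under 0.05 in either direction). They were Psma1, Psma2, Psma5, Psmb4, Psmb6, Psmc1, Psmc3, Psmd1 and Psmd13, and the median log2 change was 0.14. Psmc3 rose by 0.21 ± 0.05 (adjusted p = 0.0072) and Psmb6 by 0.22 ± 0.07 (0.0311). The count of 9 fell to 4 without femur library 1, 2 without femur library 2, 5 without tibia library 2 and 3 without tibia library 3 of mouse 7, and to 5 without tibia library 1 of mouse 19. Within mouse 19, 2 of 45 were higher (4.44%, against 2.96%), Psma2 (0.19 ± 0.05, adjusted p = 0.0283) and Psmc1 (0.20 ± 0.06, 0.0454), and none lower (against 2.21%; none by DESeq2, and 11 at an unadjusted p under 0.05 in either direction). The count of 2 was near the share over all genes, and the median there was 0.066. No member passed in mouse 19 when any 1 of its femur libraries, its tibia library 1 or its tibia library 2 was left out, and 1 passed when either femur library 1 or tibia library 2 of mouse 7 was dropped.

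The difference of the change between the mice was tested itself. It passed in 0 of 45 members (1 unadjusted p under 0.05; 0 by DESeq2), against 4.74% of all genes. Psmc3 had the smallest p, with a change that was 0.18 ± 0.07 lower on the log2 scale in mouse 19 (unadjusted p = 0.0174; adjusted p = 0.184, edgeR). Psmd7, Psmd4 and Psmd13 came next, with differences of -0.18, -0.15 and -0.13 and adjusted p of 0.358, 0.396 and 0.436. Differences were negative in 32 of 45 members, with a median of -0.050. Over the same contrast 12 of the 13 cycling-cell genes differed between the mice (all but Birc5). Within mouse 7, 12 of the 13 were called higher in tibia (all but Mki67), and within mouse 19, 3 were called lower; their part in the mouse-specific values was not tested.

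The untreated femurs of the mice also differed in proteasome genes. In mouse 19, 14 of the 45 members were higher than in mouse 7 (31.1%, against 14.1% of all genes) and 1, Psma8, was lower (against 14.3%). The largest were Psmc3 (0.29 ± 0.05, adjusted p = 6.9e-05), Psmb3 (0.25 ± 0.06, 0.0026), Psmb6 (0.25 ± 0.07, 0.0049), Psmd13 (0.22 ± 0.05, 0.0015) and Psmd8 (0.22 ± 0.05, 7.7e-04). The others were Psma1, Psma2, Psmb2, Psmb4, Psmc5, Psmd1, Psmd3, Psmd5 and Psmd7. No activator, inhibitor or assembly factor was called by edgeR or DESeq2 (0 of 9, also at an unadjusted p under 0.05). The count of 15 fell to 8 without femur library 1 of either mouse, 8 without femur library 2 of mouse 7 and 6 without femur library 2 of mouse 19. All 13 cycling-cell genes and all 10 granulocyte precursor genes tested were higher in the femur of mouse 19. Of 9 macrophage genes 6 were lower. Of 5 tested erythroid genes 3 were higher (Klf1, Epor and Car1). Of 4 lymphoid genes 3 were lower and Nkg7 was higher, and of 6 stromal genes Cxcl12 was lower. The part of these cell types in the proteasome difference was not tested. The immunoproteasome gene Psmb10 was lower (-0.25 ± 0.07, adjusted p = 0.0063, edgeR), and Psmb8 and Psmb9 were not called. With 1 animal on each side, this contrast compares mouse 7 with mouse 19 and nothing wider. It shares the femur libraries with the tibia contrasts, so the values are not independent of theirs.

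Genes that work with the complex were described from further lists. The immunoproteasome genes, whose products replace the protease subunits after interferon, had no call in tibia (0 of 3 by edgeR, 0 at an unadjusted p under 0.05 and 0 by DESeq2): Psmb8 stood at 174 ± 6.09 CPM in femur and 180 ± 8.56 CPM in tibia (SD, n = 6), Psmb9 at 68.0 ± 3.94 and 68.9 ± 2.21, and Psmb10 at 92.0 ± 9.93 and 88.3 ± 8.20. A further list of 12 genes held other proteasome subunits, assembly factors and partner proteins of the complex. None was called over both mice by edgeR or DESeq2 (3 at an unadjusted p under 0.05), and the median was 0.042. Pomp, the maturation factor of the core, stood at 115 ± 5.78 and 114 ± 5.67 CPM, and the ubiquitin receptor Adrm1 at 50.1 ± 3.06 and 54.9 ± 3.88 CPM (0.13 ± 0.05, adjusted p = 0.115). Usp14, the deubiquitinase that docks on the base, was higher in mouse 7 (0.22 ± 0.07, adjusted p = 0.0309) and not called over both mice.

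None of 6 ubiquitin and ubiquitin-activating genes was called by edgeR or DESeq2 (1 at an unadjusted p under 0.05, Uba6). Of 14 genes for shuttle receptors and the p97 unfoldase system 1 was higher, Vcp, which encodes p97 itself (210.0 ± 17.9 CPM in femur and 226 ± 10.1 in tibia). Its change was 0.11 ± 0.03 (adjusted p = 0.0482, edgeR). Of all tested genes 3.51% were called higher, and 1 call in a list of 14, or of 10 as for Maf below, is near that share. Vcp was called within mouse 7 (0.17 ± 0.04, adjusted p = 0.0073) and not within mouse 19 (0.05 ± 0.04, 0.628), and it did not pass on sums per animal (0.544). Of 10 genes for transcription factors and stress partners 1 was higher, Maf (0.58 ± 0.11, adjusted p = 0.0011), a factor better known for macrophage identity; it was called within mouse 19 and not within mouse 7 (adjusted p = 0.152), and did not pass on sums per animal (0.122). Nfe2l1, whose product induces proteasome genes when the complex is impaired, stood at 94.6 ± 2.78 and 99.8 ± 3.37 CPM (0.08 ± 0.04, adjusted p = 0.248), and Nfe2l2 at 194 ± 10.4 and 189 ± 9.10 CPM (0.674). The enzymes that process the Nfe2l1 product, Ddi2 and Ngly1, had -0.13 ± 0.05 and -0.12 ± 0.05 and did not pass (0.131 and 0.135).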

How the data were processed

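Whole-number read counts per gene and library were deposited by the authors, with no scaling that the values show; 12 columns were matched to the 12 libraries by title and 0 were left unused. Total RNA was made into libraries with a Vazyme mRNA kit, per the labels' protocols. The submitters' processing notes name the build mm10 and bcl2fastq, HISAT2, featureCounts, Subread and DESeq2; the sources used here do not give versions, settings, strand or annotation. Reads shared with overlapping genes, or with processed copies of proteasome genes elsewhere in the genome, therefore cannot be assigned with certainty. Of counts from 1 to 10, 69.8% were even, so read pairs appear to be counted as 2.

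Counts were tested with edgeR 4.0.16 in R 4.3.3, by the quasi-likelihood test with TMM scaling and filterByExpr (minimum count 10 over the 4 groups of mouse and bone), on all 11806 genes kept, two-sided, with Benjamini-Hochberg adjustment over all of them and a threshold of 0.05. The bone contrast over both mice had the mouse as a term; contrasts within mice, between mice and of their difference came from a fit of the 4 group means; the biological coefficient of variation was 6.26% and 5.51%. Standard errors are the absolute log2 change divided by the square root of F. Counts summed per mouse and bone were tested with the animal as the unit. DESeq2 1.42.0, other scalings and filters, no mouse term, a replicate block, halved counts and leaving out each library were alternatives. The test was run on simulated data beforehand. Exon lengths and coordinates come from GENCODE release M21 (GRCm38, the assembly of mm10), over exons of transcripts with a RefSeq entry.

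The members, the gene lists and the contrasts were chosen with earlier results of these data known. Values for every library are given for members called over both mice, the 4 with the smallest p for the difference between mice, Psmb5, Psmb6, Psmb7, Psmd14 and Psme1 to Psme4, and the highest and lowest change of each group; Psmc3ip was kept by the symbol rule.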

Additional observations from a re-analysis of the deposited data

Results flagged for a closer look

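No proteasome member differed between the mice by the test of the difference itself. Genes of 4 of the lists used beside them did, by edgeR's interaction contrast (adjusted p under 0.05). Of all 11806 tested genes, 4.74% passed that contrast in either direction. Of 13 cycling-cell genes, the tibia over femur change differed between the mice in 12, each with a lower value in mouse 19 (median difference -0.34 on the log2 scale over the list). Of 9 macrophage genes it differed in 4 (Emr1, Csf1r, Itgam and Fcgr1), each with a higher value in mouse 19. Of 10 granulocyte precursor genes it differed in 3 (Mpo, Prtn3 and Ctsg), each lower in mouse 19. Of 10 genes for proteasome transcription and stress it differed in 1, Maf, which had a log2 change of 0.21 ± 0.09 in mouse 7 and 1.01 ± 0.10 in mouse 19.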

How the results depend on the processing

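The direction of all 8 called members was kept under every alternative run. They kept their calls with DESeq2's size factors, upper quartile scaling, no filter, a filter of 5 CPM in 3 libraries, the DESeq2 test and halved counts, under which 8 to 10 members were called. Without the mouse term 0 members were called, and all 8 also missed the threshold on sums per animal. The replicate number gave no pairing (same-numbered libraries correlated at -0.047 to 0.00059 over 6 pairs, and 0 libraries correlated best with their own number); with the number as a replicate block 5 of 8 calls were left, Psma1 (adjusted p = 0.0565), Psma6 (0.0818) and Psmd13 (0.0641) missing it. The cause was not tested.

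Leaving out each library in turn gave 4 to 11 members higher in tibia over both mice, 2 to 13 within mouse 7, 0 to 3 within mouse 19, and 6 to 15 called between the femurs. Within mouse 19, upper quartile scaling called 1 member. Counts of 0 (lower in tibia, differing between the mice, called on sums) were 0 in each alternative run for them. Among members that were not called, the log2 change turned negative for Psme1 (-0.0079 to 0.038 over the left-out fits), Psme2 (-0.00048 to 0.026) and Psmg2 (-0.048 to 0.080). Psmc2 passed in 7 alternatives, Psmb6 and Psmd12 in 2 each, and Psmb2, Psmc5, Psmd3, Psmd9 and Psmg1 in 1 each. Depth limits the genes with few counts: the standard errors were 0.23 for Psma8 and 0.15 for Psmc3ip, beside a highest called change of 0.21 in the core.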
